A study of Mus musculus with 9 samples.

Results

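The Fc gamma receptors are the proteins by which microglia and other myeloid cells bind immunoglobulin G. The mouse genes studied here are Fcgr1, Fcgr2b, Fcgr3 and Fcgr4, together with Fcer1g, which encodes the FcR gamma chain. They were taken as a gene family by symbol, and each was found through a probe set annotated to that gene alone. All 5 had exactly 1 such probe set, so the choice of the highest-mean probe set per gene decided nothing, and they make up 5 of the 19938 genes that the arrays name singly. All 5 lay above the filter on low values, a mean log2 value of 5.31 over all mice, and were tested among 10795 genes.

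Expression was measured on 9 arrays, 1 per mouse, in cells sorted as CD45+ CD11b+ from perfused brains of mice aged 8.5 months. Every mouse carried 5XFAD, transgenes that lead to amyloid plaques in the brain, and all lacked murine TREM2, a lipid-sensing receptor of microglia. In 3 mice nothing replaced it (KO), 3 expressed the R47H variant of human TREM2 (R47H), known as a risk allele for Alzheimer's disease, and 3 expressed the common variant (CV). What drives the human transgenes is not stated in the labels. Mouse 1 of every group was female and mice 2 and 3 were male. No mouse without 5XFAD or with murine TREM2 was analysed here, so the comparisons concern human TREM2 in brains with amyloid. The question they address is whether TREM2, or its R47H variant, alters the equipment of microglia for taking up antibody-coated material.

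Fcgr1 encodes the high-affinity receptor CD64, and Fcgr3 and Fcgr4 encode low-affinity activating receptors, CD16 and CD16-2. The surface expression and signalling of these 3 receptors depend on the FcR gamma chain. That chain carries an immunoreceptor tyrosine-based activation motif (ITAM), which Src family kinases phosphorylate and the kinase Syk then binds, leading to engulfment. Fcgr2b encodes CD32b, which carries an inhibitory motif and recruits the lipid phosphatase SHIP1 (Inpp5d) against that signal. TREM2 itself signals through Tyrobp, a second ITAM adaptor upstream of Syk. Interferon-gamma is a classical inducer of Fcgr1 and Fcgr4.

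No difference between genotypes in these genes passed the correction over all genes tested. In each of the comparisons CV minus KO, R47H minus KO and R47H minus CV, 0 of the 5 genes passed a Benjamini-Hochberg adjusted p under 0.05 in limma. Over all 10795 genes 1.21%, 0.0834% and 0.797% did, so a count of 0 of 5 is near the background. At an unadjusted p under 0.05 limma gave 1, 0 and 1 of the 5 genes, against 13.2%, 5.68% and 12.4% of all genes. The 1 gene in both cases was Fcgr2b, the inhibitory receptor, which had its lowest mean in CV. The median difference of the 5 genes was -0.03 in CV minus KO, 0.06 in R47H minus KO and 0.11 in R47H minus CV on the log2 scale, and the medians of all tested genes were -0.02, -0.0011 and 0.01.

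**Figure D1:**
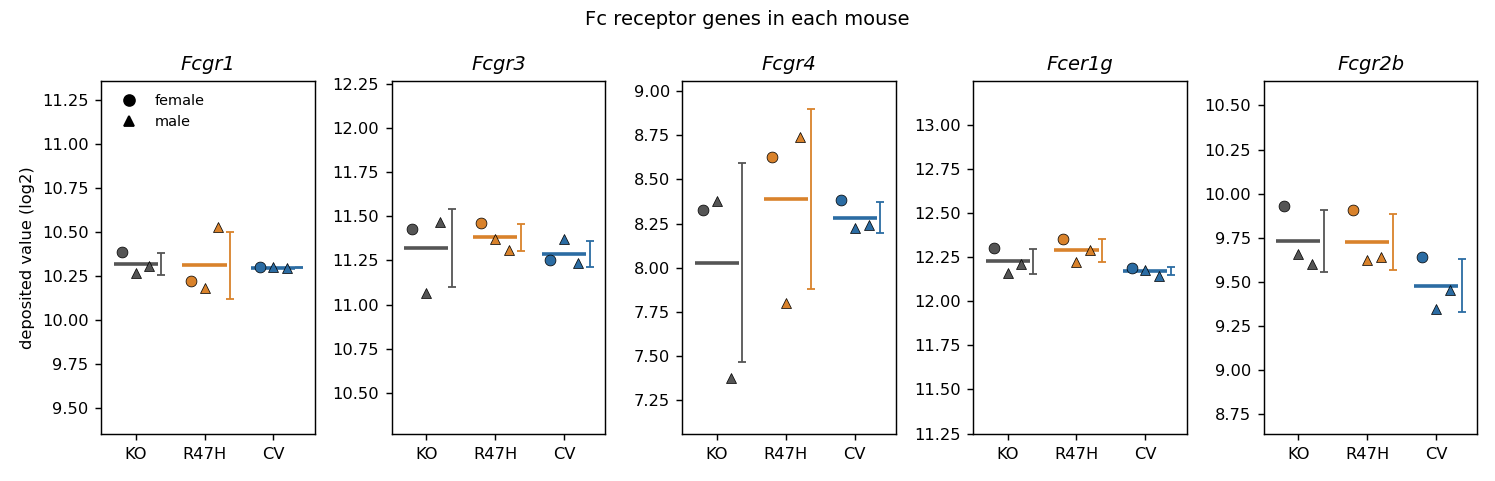
Deposited log2 value of each gene (y axis, log2, every panel spanning the same number of units) in each of 3 KO, 3 R47H and 3 CV mice (x axis); circles are females, triangles males, the horizontal line is the group mean and the bar beside it 1 SD over 3 mice. Fcgr1 and Fcer1g vary little, Fcgr4 spreads from 7.38 to 8.74, and the females of Fcgr2b lie above the males of the same genotype.

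The high-affinity receptor gene Fcgr1 (Entrez 14129, probe set 10500335, chromosome 3, 96282909 to 96293969 in GRCm38.p6) read 10.39, 10.26 and 10.31 in KO mice 1 to 3, 10.22, 10.18 and 10.53 in R47H mice 1 to 3, and 10.30, 10.30 and 10.29 in CV mice 1 to 3 (log2). The CV mice read 10.30 ± 0.0024 (mean ± SD, n = 3) and lay inside the range of the KO mice. CV mice 1 and 2 had exactly the same value, 10.2988. Such ties between arrays also occur in other genes, as in Vav2, at 7.8701 in KO mice 2 and 3 and CV mice 1 and 2. Their origin was not analysed, so this SD is no measure of how alike the CV mice were. The R47H mice held both the lowest and the highest value of the series. CV minus KO was -0.02 ± 0.10 (SE), R47H minus KO -0.01 ± 0.10 and R47H minus CV 0.01 ± 0.10 (limma adjusted p = 0.944, 0.999 and 0.974). The 95% confidence interval of CV over KO ran from 0.845-fold to 1.15-fold, and that of R47H over KO from 0.852-fold to 1.16-fold.

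Fcgr3 (Entrez 14131, probe set 10360040, chromosome 1, 171051169 to 171065915) encodes CD16, an activating receptor that microglia carry at rest. It read 11.43, 11.07 and 11.47 in KO mice 1 to 3, 11.46, 11.37 and 11.31 in R47H mice 1 to 3, and 11.25, 11.37 and 11.24 in CV mice 1 to 3. KO mouse 2 was the lowest of all and KO mouse 3 the highest, so the KO range enclosed the R47H and CV mice. The differences were -0.03 ± 0.11 for CV minus KO, 0.06 ± 0.11 for R47H minus KO and 0.10 ± 0.11 for R47H minus CV (limma adjusted p = 0.926, 0.975 and 0.781). Intervals ran from 0.825-fold to 1.16-fold for CV over KO and from 0.881-fold to 1.24-fold for R47H over KO. The sign for CV minus KO turned when KO mouse 1, KO mouse 3 or CV mouse 1 was left out, at 0.0080, 0.06 and 0.03, and was -0.16 without KO mouse 2. For R47H minus KO, leaving out KO mouse 2 gave -0.06 and leaving out KO mouse 3 gave 0.15.

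Fcgr4 (Entrez 246256, probe set 10351509, chromosome 1, 171018926 to 171029761) encodes a receptor that binds the IgG2a and IgG2b subclasses. It read 8.33, 8.38 and 7.38 in KO mice 1 to 3, 8.625, 7.80 and 8.74 in R47H mice 1 to 3, and 8.38, 8.22 and 8.24 in CV mice 1 to 3. KO mouse 3 and R47H mouse 2 stood below all other mice, and the group ranges overlapped. Fcgr4 had the widest range of the 5 genes over the 9 mice, 1.36 against 0.21 to 0.58 for the others. R47H minus KO was 0.36 ± 0.28, larger in size than 97.5% of all tested genes, yet within the spread between mice (limma adjusted p = 0.946). CV minus KO was 0.26 ± 0.28 and R47H minus CV 0.11 ± 0.28 (adjusted p = 0.745 and 0.911). The intervals were wide, from 0.769-fold to 1.85-fold for CV over KO and from 0.828-fold to 1.99-fold for R47H over KO. Without KO mouse 3, CV minus KO was -0.04 and R47H minus KO 0.06. Without KO mouse 2 these differences were 0.51 and 0.61, and without R47H mouse 2 or mouse 3 R47H minus KO was 0.62 or 0.11. R47H minus CV was 0.37 without R47H mouse 2 and -0.14 without R47H mouse 3.

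Fcer1g (Entrez 14127, probe set 10360070, chromosome 1, 171229572 to 171234349), the shared signalling chain, read 12.30, 12.16 and 12.21 in KO mice 1 to 3, 12.35, 12.22 and 12.29 in R47H mice 1 to 3, and 12.19, 12.18 and 12.145 in CV mice 1 to 3. Its range over all mice, 0.21, was the narrowest of the 5 genes. The R47H mice all lay above the CV mice, a pattern found in 8.74% of all tested genes, and each of the groups overlapped with KO. R47H minus CV was 0.12 ± 0.06, or 1.09-fold with an interval of 0.984-fold to 1.20-fold (limma adjusted p = 0.496). CV minus KO was -0.06 ± 0.06 and R47H minus KO 0.06 ± 0.06 (adjusted p = 0.753 and 0.956), with intervals of 0.871-fold to 1.06-fold and 0.946-fold to 1.15-fold. All 3 intervals of Fcer1g thus lay between 0.871-fold and 1.20-fold, the narrowest of the family.

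**Figure D2:**
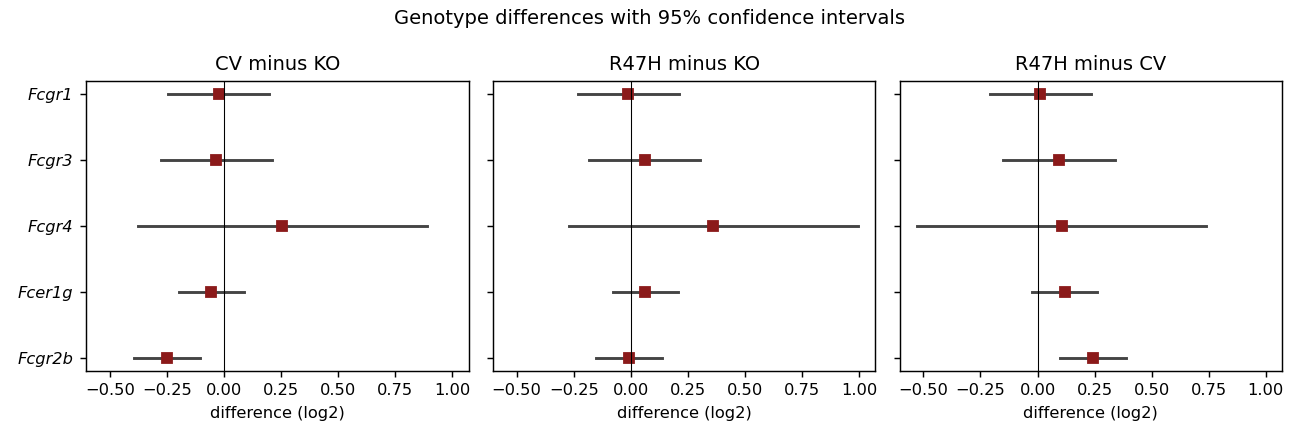
Log2 difference of each gene (x axis) in CV minus KO, R47H minus KO and R47H minus CV, from limma on all 9 arrays; squares are estimates and lines 95% confidence intervals. The intervals of Fcgr2b lie beside 0 in both comparisons with CV before correction over all genes, and those of Fcgr4 are the widest.

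The inhibitory receptor gene Fcgr2b (Entrez 14130, probe set 10360028, chromosome 1, 170960558 to 170976071) read 9.93, 9.66 and 9.60 in KO mice 1 to 3, 9.91, 9.63 and 9.64 in R47H mice 1 to 3, and 9.64, 9.35 and 9.45 in CV mice 1 to 3. The CV female lay near the KO and R47H males, so the groups overlapped when the sexes were pooled. Within each sex every CV mouse lay below every KO and R47H mouse. That pattern held for 6.69% of all tested genes and for no other gene of the family. CV minus KO was -0.25 ± 0.06, or 0.84-fold with an interval of 0.76-fold to 0.929-fold, and R47H minus CV was 0.24 ± 0.06, or 1.18-fold with an interval of 1.07-fold to 1.31-fold. Neither passed the correction over all genes (limma adjusted p = 0.124 and 0.169), and CV minus KO ranked 312 of 10795 by p. R47H minus KO was -0.0065 ± 0.06, with an interval of 0.90-fold to 1.10-fold (adjusted p = 0.999). Leaving out any 1 mouse kept CV minus KO between -0.29 and -0.23 and R47H minus CV between 0.22 and 0.28. Without the sex term the SE of both was 0.12, with an unadjusted limma p of 0.0613 and 0.0671. The intervals beside 0 thus depended on fitting sex.

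Beside the lower Fcgr2b values of the CV mice, markers of several cell types differed between the groups. All 11 tested microglial markers had negative differences in CV minus KO (0 called over all genes, median -0.19). Of these 11, 7 had an unadjusted limma p under 0.05, against 13.2% of all tested genes. The mean level of the 11 markers was 11.47 to 11.56 in KO, 11.42 to 11.49 in R47H and 11.30 to 11.35 in CV. All 10 tested neutrophil markers had positive differences (0 called, median 2.29), and 9 of them had an unadjusted limma p under 0.05. The mean level of the 10 markers was 6.225 to 9.996 in KO, 6.97 to 8.18 in R47H and 9.09 to 10.04 in CV. The neutrophil markers Elane, Ly6g, Cxcr2 and Mpo had means below the filter, at 4.66, 4.67, 5.09 and 5.23, although Ly6g reached 6.67 and Cxcr2 6.23 in a CV mouse. B cells carry Fcgr2b as their Fc gamma receptor, and 4 of 9 B cell markers passed the filter, with a mean level of 7.01 to 7.20 in KO, 6.99 to 7.06 in R47H and 6.76 to 6.93 in CV. Of these 4, Cd79b and Bank1 had negative differences in CV minus KO, at -0.65 and -0.59, and Cd22 and Ighm positive ones, at 0.17 and 0.10. The defining B cell genes Ms4a1, Cd79a, Pax5 and Ebf1 lay below the filter, at means of 2.74, 3.65, 4.55 and 3.66. With the neutrophil score as a covariate Fcgr2b stood at -0.21 ± 0.09 in CV minus KO (limma adjusted p = 0.73). The part of the microglial and B cell markers in the result was not tested. In sorted bulk samples fewer cells of a type and less RNA per cell cannot be told apart.

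Fcgr2b was higher in the female than in the males of each genotype, a comparison added after its values were seen. The KO female read 9.93, the R47H female 9.91 and the CV female 9.64, each above both males of its genotype, at 9.60 and 9.66, 9.63 and 9.64, and 9.35 and 9.45. Females exceeded the mean of the males by 0.30 in KO, 0.27 in R47H and 0.24 in CV. Female minus male was 0.27 ± 0.06, or 1.21-fold, and did not pass the correction over all genes (limma adjusted p = 0.187, 0.0648% of all genes called). A female above both males in all 3 genotypes was found in 8.28% of tested genes, and Fcer1g also showed it, at 0.08 ± 0.05 (adjusted p = 0.65). Fcgr1, Fcgr3 and Fcgr4 showed it in 1 genotype each, with adjusted p = 0.981, 0.82 and 0.691. Each genotype had 1 female, so a sex difference rests on 3 females against 6 males. The female was mouse 1 in every group, so sex and mouse number 1 cannot be told apart. The test of a sex by genotype interaction gave adjusted p of at least 0.987 for every one of the 5 genes in all 3 comparisons. With 1 female per genotype this test has little power, so it cannot show that genotype differences are alike in both sexes.

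Activating and inhibitory receptors compete for the same antibody, so each gene was also set against Fcgr2b on the same array. The distance between probe sets has no meaning as a level, since probe sets differ in brightness, but its change between mice removes whatever scales a whole array. Fcgr1 minus Fcgr2b was 0.46, 0.60 and 0.71 in KO mice 1 to 3, 0.31, 0.56 and 0.89 in R47H mice 1 to 3, and 0.66, 0.95 and 0.84 in CV mice 1 to 3 (log2 difference). The CV mean lay 0.23 above the KO mean, and the groups overlapped. Fcgr4 minus Fcgr2b was -1.60, -1.28 and -2.22 in KO mice 1 to 3 and -1.26, -1.12 and -1.21 in CV mice 1 to 3. Its CV mice all lay above its KO mice, by 0.51 in the mean, and by 0.25 without KO mouse 3, with KO mouse 2 close to the CV range. Of the 10794 other tested genes, 22.9% had a distance to Fcgr2b that was higher in all CV mice than in all KO mice, and of the 4 distances given here only that of Fcgr4 did. The R47H mice, at -1.28, -1.82 and -0.90, spanned both groups. Fcgr3 minus Fcgr2b was higher in CV than in KO by 0.22 and Fcer1g minus Fcgr2b by 0.20 in the mean, both with overlapping groups. These distances share the Fcgr2b values, so they are not separate observations, and they were not tested.

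**Figure D3:**
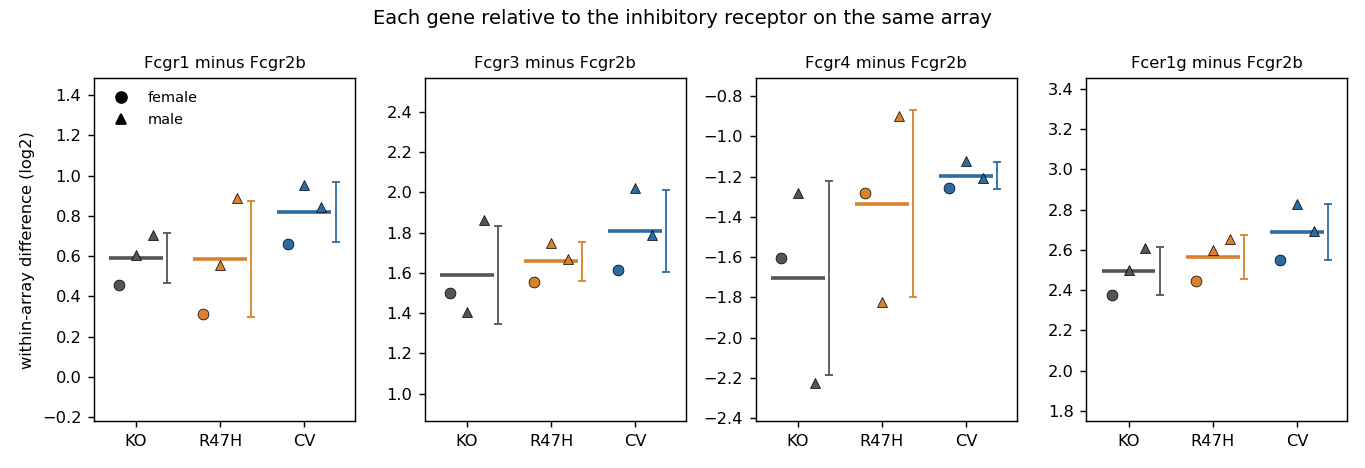
Difference between each gene and Fcgr2b on the same array (y axis, log2 units, every panel spanning the same number of units) in KO, R47H and CV mice (x axis); circles are females, triangles males, lines group means and bars 1 SD over 3 mice. For Fcgr4 the CV mice lie between -1.26 and -1.12, above all KO mice.

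R47H mouse 3 held the highest Fcgr1 and the highest Fcgr4 value of the series, 10.53 and 8.74. It also stood apart in interferon response genes. Their score averages, over 24 tested genes, how far each gene lay from its own 9-mouse mean, and was 0.68 in that mouse, 0.10 and -0.17 in R47H mice 1 and 2, and between -0.39 and 0.18 in the KO and CV mice. Rsad2, an antiviral enzyme induced by interferon, read 7.62 in R47H mouse 3 and 5.98 to 6.62 in the other mice. Ifit2, an interferon-induced RNA-binding protein, read 8.48 there and 6.39 to 7.64 in the others. Without this mouse R47H minus KO was -0.13 for Fcgr1 and 0.11 for Fcgr4, against -0.01 and 0.36 with it. The part of interferon genes in the receptor values was not tested.

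The sequence before the start of Fcgr4 is shown because this gene, the most variable of the 5, had its highest value in the mouse with the highest interferon score. It is the 250 bases before the RefSeq start in GRCm38.p6, chr1:171018676-171018925 on the plus strand, 5′ to 3′, with capitals for a match to GAAA, any 2 letters and GAAA again, the paired half-sites of the interferon-stimulated response element (ISRE).
Fcgr4: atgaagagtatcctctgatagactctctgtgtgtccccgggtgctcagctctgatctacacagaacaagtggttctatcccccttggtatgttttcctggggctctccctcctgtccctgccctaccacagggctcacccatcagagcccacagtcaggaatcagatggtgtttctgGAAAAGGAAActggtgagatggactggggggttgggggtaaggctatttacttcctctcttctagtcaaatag

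The capitals are the ISRE match GAAAAGGAAA, at bases -73 to -64 from the start of Fcgr4. Both strands were searched. Of 32536 distinct windows of this length before RefSeq starts in the mouse genome, 2.98% held the ISRE letters. The windows of Fcgr1, Fcgr2b and Fcer1g and the 2 windows of Fcgr3 did not hold them. Both Fcgr3 windows lie inside the gene span given above, at chr1:171059404-171059653 and chr1:171059395-171059644. The bases before the outer end of Fcgr3 were not searched. GAGGAA, a core bound by the myeloid factor PU.1, was found on the minus strand as TTCCTC in Fcgr1 at -55 to -50 and in Fcgr4 at -22 to -17. In Fcgr3 it lay at -6 to -1 or -15 to -10 from the 2 inner starts searched. Of all windows 23.4% held this core. It did not overlap the ISRE match. These are matches of letters, not measured binding.

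Neutrophils express Fcgr3, Fcgr4 and Fcer1g, and the neutrophil score differed widely between mice. It was -2.06, -1.59 and 1.71 in KO mice 1 to 3, -1.32, -0.73 and -0.11 in R47H mice 1 to 3, and 0.80, 1.75 and 1.55 in CV mice 1 to 3. KO mouse 3 thus lay among the CV mice, and it was also the mouse with the lowest Fcgr4 (7.38) and the highest Fcgr3 (11.47). With this score as a covariate CV minus KO for Fcgr4 was 0.73 ± 0.34 (limma adjusted p = 0.76) against 0.26 without it, and R47H minus CV turned from 0.11 to -0.38 (adjusted p = 0.90). For Fcgr3 the covariate gave -0.22 ± 0.13 in CV minus KO and 0.28 ± 0.13 in R47H minus CV (adjusted p = 0.875 and 0.806). The score varied most within KO (SD 2.05, against 0.61 in R47H and 0.50 in CV), so these adjusted values lean on KO mouse 3. Without that mouse and without the covariate, CV minus KO for Fcgr4 was -0.04. Every CV mouse also scored above every R47H mouse, so score and genotype cannot be fully told apart. Natural killer cells, which carry Fcgr3, left 8 of 9 markers below the filter, Ncr1 and Klrb1c among them. Mast cells and basophils, which also use Fcer1g, left 8 of 10 markers below the filter. The IgE receptor chains Fcer1a and Ms4a2 were among these, at 3.03 and 3.37.

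**Figure D4:**
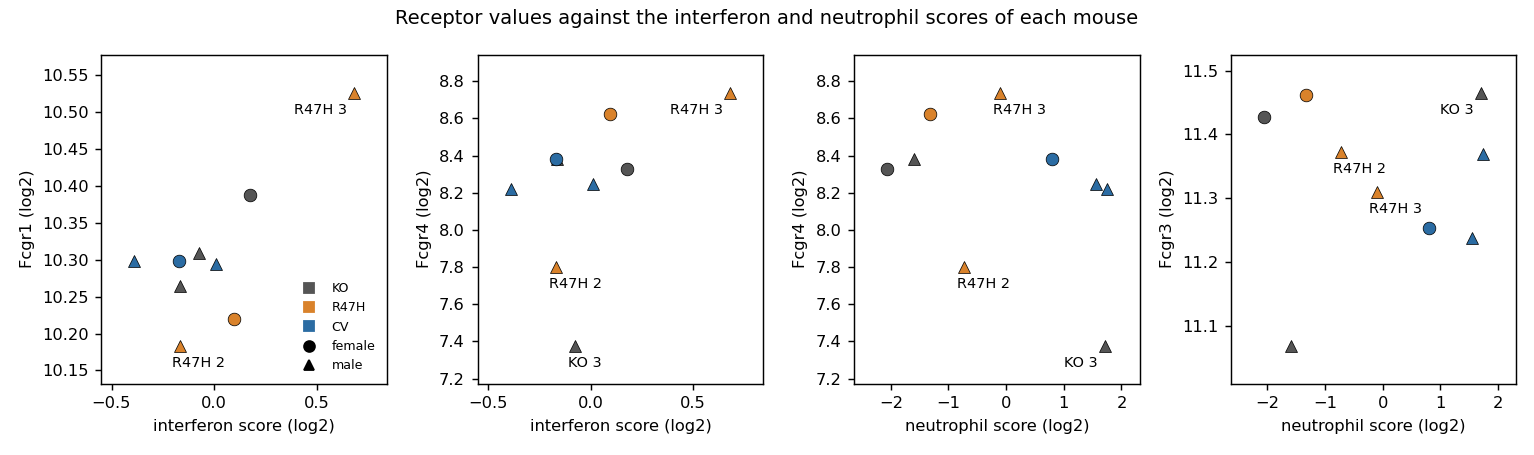
Log2 value of Fcgr1 and Fcgr4 against the interferon score, and of Fcgr4 and Fcgr3 against the neutrophil score, 1 point per mouse (score: mean deviation of the list's tested genes from their means over all mice, log2 units; colours are genotypes, circles females, triangles males). R47H mouse 3 lies at an interferon score of 0.68 with the highest Fcgr1 and Fcgr4, and KO mouse 3 combines a neutrophil score of 1.71 with the lowest Fcgr4.

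The sorted cells carried the markers of their label. All 11 microglial markers with a probe set of their own passed the filter, with Cx3cr1 at 12.24 to 12.43, P2ry12 at 10.83 to 11.38 and Tmem119 at 11.52 to 12.01 over all mice. All 8 neuronal markers lay below the filter. Oligodendrocyte markers were higher in R47H, with 7 of 7 differences positive against KO (1 called, median 1.01) and against CV (5 called, median 1.14). Of 4 tested astrocyte markers 3 had positive differences in R47H against KO (0 called, median 0.72) and 4 against CV (1 called, median 0.87). The part of both lists in the Fcer1g values of R47H and CV was not tested. Of the remaining marker lists, monocyte markers (8 tested) had 1 called higher in CV than in KO, Fn1, at 2.20 ± 0.15 (limma adjusted p = 0.000512). Of 9 tested markers of macrophages of the brain borders 7 had negative differences in CV minus KO (median -0.29, 4 of 9 at an unadjusted p under 0.05), while the 1 called, Ms4a7, was higher in CV, at 0.82 ± 0.15 (adjusted p = 0.0423). Of 2 tested endothelial markers Flt1 was higher in CV than in KO, by 1.55 ± 0.17 (adjusted p = 0.00413), and Pecam1 stood at -0.56 ± 0.16 (adjusted p = 0.17). In the same comparison 0 of 2 T cell and 0 of 4 dendritic cell markers were called (limma, 0 of either at an unadjusted p under 0.05).

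In the signalling and engulfment machinery downstream of Fc receptors, 1 gene passed the test in CV minus KO. Of 34 tested activating signalling genes 1 rose in CV against KO and 0 fell (median -0.03), and 0 of 18 inhibitory signalling genes and 0 of 32 genes of the phagocytic cup passed the test (medians -0.0026 and -0.01). The gene was Fgr, a Src family kinase of myeloid cells. It read 6.79, 6.15 and 6.20 in KO mice 1 to 3, 6.89, 6.62 and 6.44 in R47H mice 1 to 3, and 7.99, 7.76 and 7.41 in CV mice 1 to 3. All CV mice lay above all KO and R47H mice. A wider pattern, CV above all KO and R47H mice of the same sex, held for 4.93% of all tested genes. Fgr was 2.54-fold higher in CV than in KO (1.35 ± 0.105, limma adjusted p = 0.000814) and lower in R47H than in CV by a difference of -1.07 ± 0.105 (adjusted p = 0.00479). R47H minus KO was 0.27 ± 0.105 (adjusted p = 0.796). The second of these calls was lost without R47H mouse 1 (adjusted p = 0.0602), without the sex term (0.0547) and with the neutrophil score as a covariate (0.103). With that score Fgr stood at -1.09 ± 0.16 in R47H minus CV, so the estimate hardly moved and the SE grew. Syk, the kinase downstream of Fcer1g and Tyrobp, read 8.06 to 8.34 over all mice and stood at -0.02 ± 0.09 in CV minus KO. Itpr2, a calcium channel of the endoplasmic reticulum, stood at -0.14 ± 0.09 in R47H minus KO.

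Among inhibitory signalling genes, Inpp5d, the phosphatase that Fcgr2b recruits, read 10.93 to 11.05 in KO, 10.87 to 10.99 in R47H and 10.76 to 10.89 in CV. CV minus KO was -0.18 ± 0.07 (limma adjusted p = 0.316). Pilra, an inhibitory receptor, stood at 0.27 ± 0.10 in CV minus KO and -0.30 ± 0.10 in R47H minus CV, and Dok2, a docking protein, at -0.31 ± 0.09 in R47H minus CV (adjusted p = 0.275, 0.272 and 0.227). Cblb, a ubiquitin ligase, stood at -0.19 ± 0.11 in R47H minus KO. In the phagocytic cup list Was, an activator of actin branching, stood at -0.35 ± 0.08 in CV minus KO (adjusted p = 0.0906) and Marcksl1 at 0.37 ± 0.13. The lipid kinase gene Pip5k1c stood at -0.27 ± 0.08 in R47H minus CV and Actr3, of the ARP2/3 complex, at -0.17 ± 0.06, and Pip5k1a stood at -0.14 ± 0.09 in R47H minus KO. In R47H minus KO 0 genes of the 3 lists passed the test, with medians of -0.03, -0.07 and -0.01.

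Other receptors also pair with the FcR gamma chain. A list of receptors named as its partners had 11 tested genes. Whether each of them pairs with the chain, Clec5a and Pirb among them, was not checked here. At an unadjusted limma p under 0.05 there were 5 of the 11 in CV minus KO and 3 in R47H minus CV. Of all tested genes 13.2% and 12.4% reached it. Clec4e, also on the list, was not tested, as its mean of 4.90 lay below the filter. It read 3.89 to 5.33 in KO, 3.96 to 4.18 in R47H and 5.98 to 6.06 in CV. Of the 11 genes 1 was called higher in CV than in KO (median 0.22). The same gene was the 1 called lower in R47H than in CV (median -0.10). This was Clec4d, a lectin receptor for glycolipids. It read 5.01, 5.47 and 6.39 in KO mice 1 to 3, 5.10, 5.19 and 5.34 in R47H mice 1 to 3, and 6.95, 7.68 and 7.50 in CV mice 1 to 3. All CV mice lay above all others, and KO mouse 3, with its high neutrophil score, was the highest of the rest. The wider pattern of CV above all KO and R47H mice of the same sex held for 4.93% of all tested genes. Clec4d was 3.37-fold higher in CV than in KO (1.75 ± 0.23, limma adjusted p = 0.00835), and R47H minus CV was -2.17 ± 0.23 (adjusted p = 0.00641). The CV minus KO call did not survive leaving out KO mouse 1, CV mouse 1 or CV mouse 2, where adjusted p reached at most 0.0576, nor fitting the compared groups alone (0.0517). For R47H minus CV the same held for CV mouse 1 and CV mouse 3, with at most 0.0572. With the neutrophil score as a covariate both differences of Clec4d were smaller in size. CV minus KO was then 1.16 ± 0.16 and R47H minus CV -1.56 ± 0.16 (limma adjusted p = 0.0433 and 0.0255). Il3ra, the interleukin-3 receptor alpha chain, stood at 0.35 ± 0.09 in CV minus KO and 0.25 ± 0.09 in R47H minus KO, and Clec5a, a lectin receptor, at 0.23 ± 0.11 in R47H minus KO.

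Among the other ITAM adaptors 1 gene, of the B cell receptor, passed the test. Tyrobp read 12.56 to 12.70 in KO, 12.66 to 12.79 in R47H and 12.66 to 12.78 in CV, and stood at 0.07 ± 0.07 in CV minus KO. Of 5 tested adaptors Cd79b, a signalling chain of the B cell receptor, fell in CV against KO by 0.65 (SE 0.11, limma adjusted p = 0.0269). It read 7.98, 7.61 and 7.55 in KO mice 1 to 3, 7.47, 7.45 and 7.60 in R47H mice 1 to 3, and 7.34, 6.96 and 6.90 in CV mice 1 to 3. That call was lost when KO mouse 1, KO mouse 2, R47H mouse 2 or any CV mouse was left out (adjusted p up to 0.147), without the sex term (0.0971), without the filter (0.0502), with every probe set (0.0856) and with the neutrophil score as a covariate (0.322). With that score Cd79b stood at -0.59 ± 0.16 in CV minus KO. Its partner Cd79a lay below the filter. Hcst, the adaptor DAP10, stood at 0.13 ± 0.11 in R47H minus KO and Cd247, the T cell receptor zeta chain, at 0.13 ± 0.10 in R47H minus CV.

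Of 12 relatives of the Fc receptors 9 lay below the filter, and none of the 3 tested was called in any comparison (limma; unadjusted p under 0.05 for 2 in CV minus KO, 1 in R47H minus KO and 1 in R47H minus CV). Fcrls, a microglial surface protein related to Fc receptors, read 12.06 to 12.10 in KO, 12.02 to 12.10 in R47H and 11.79 to 11.9996 in CV, and stood at -0.22 ± 0.07 in CV minus KO (adjusted p = 0.257). Fcrl1, better known from B cells, read 8.06 to 8.30 in KO and 7.80 to 7.82 in CV, a difference of -0.39 ± 0.08 (adjusted p = 0.0738). For both genes the CV mice all lay below the KO mice, as in 8.05% of all tested genes. Trim21, the cytosolic antibody receptor, stood at -0.10 ± 0.20 in CV minus KO.

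Among partners in opsonin uptake, 1 of 9 tested genes rose in CV. Itgax, the integrin CD11c of complement receptor 4, read 7.003 to 8.11 in KO, 8.26 to 8.46 in R47H and 9.003 to 9.78 in CV. CV minus KO was 1.88 ± 0.16 (limma adjusted p = 0.000937), R47H minus CV was -0.96 ± 0.16 (adjusted p = 0.0363), and R47H minus KO was 0.92 ± 0.16 (adjusted p = 0.0926). The R47H minus CV call was lost without any 1 of the 3 R47H mice or of the 3 CV mice (adjusted p up to 0.186), without the sex term (0.282), without the filter (0.0665), with every probe set (0.111) and with the neutrophil covariate (0.432). With the neutrophil covariate R47H minus CV of Itgax was -0.97 ± 0.23, a like estimate with a larger SE. The median of the list was 0.0023 in CV minus KO, and Cd93 stood at -0.10 ± 0.08 in R47H minus KO. Of 24 interferon response genes 0 were called in CV minus KO (median -0.16) or R47H minus KO (median 0.26, with limma p under 0.05 unadjusted for 2 and 1 of them). Gbp7, a guanylate-binding protein, stood at -0.60 ± 0.15 in CV minus KO (adjusted p = 0.112). In R47H minus CV 1, Gbp5, was higher, by 0.68 ± 0.11 (adjusted p = 0.0373, median of the list 0.41). This call was lost without any 1 R47H or CV mouse (adjusted p up to 0.189). It was also lost without the sex term (0.0699), without the filter (0.0665), with every probe set (0.111) and with the neutrophil covariate (0.431). With that covariate the difference was 0.69 ± 0.17.

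**Figure D5:**
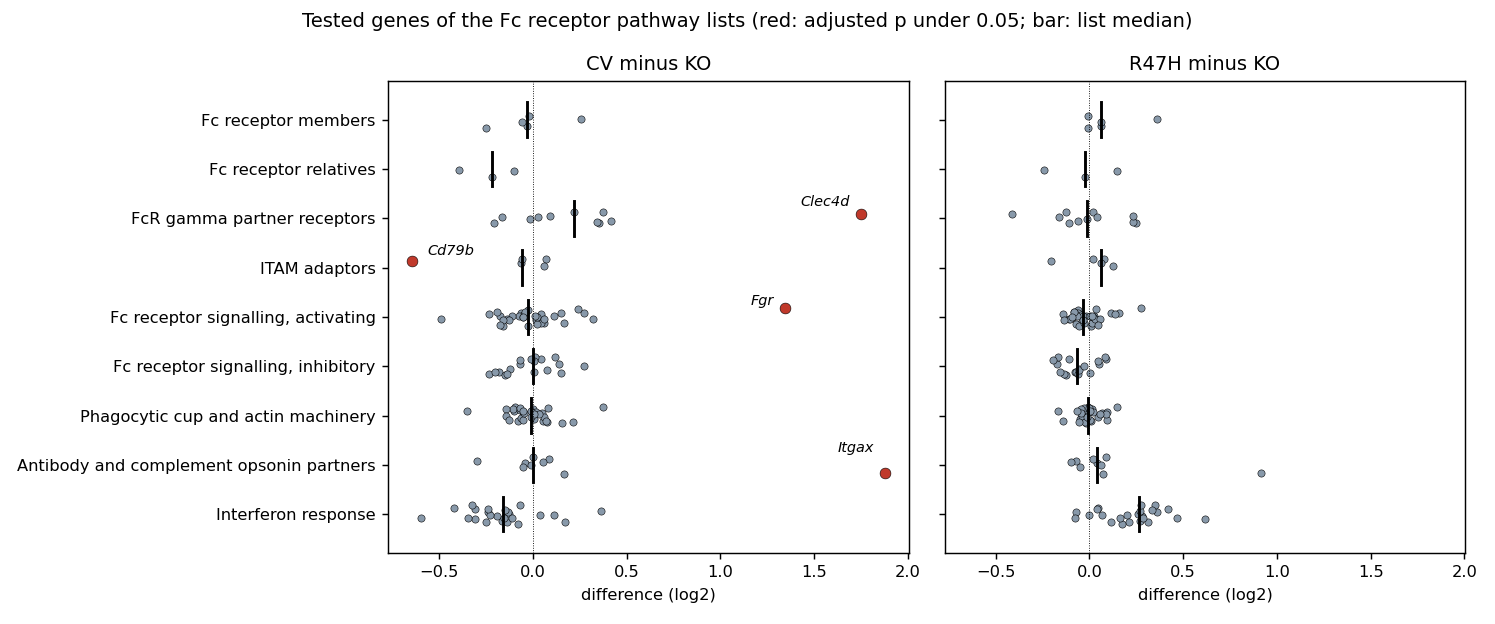
Log2 differences (x axis) of the tested genes of the Fc receptor family and of 8 pathway lists (y axis) in CV minus KO and R47H minus KO; each point is a gene, red marks an adjusted p under 0.05, the bar is the median and points are spread vertically for sight only. In CV minus KO the red points are Clec4d, Fgr and Itgax on the right and Cd79b on the left, and none lies in the Fc receptor row.

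The 5 genes did not share 1 pattern over the 9 mice. Pearson's r between pairs ran from -0.317 (Fcgr3 with Fcgr4) to 0.799 (Fcgr2b with Fcer1g), as a description over 9 arrays that share genotype and sex. The genes most like Fcgr2b among all tested were Grina, Hif1a and Nosip (r = 0.968, 0.967 and 0.967), and 83 genes reached an r of 0.9 with it. Fcer1g was most like Desi1, Usf2 and Retreg2 (r = 0.965, 0.963 and 0.959), with 25 genes at 0.9 or above. Fcgr1 was most like Kcnn4, Tubg2 and Rdh5 (r = 0.948, 0.943 and 0.927), with 7 such genes. Fcgr3 was most like Serp1, Fbxo8 and Tspyl1 (r = 0.946, 0.935 and 0.929), with 11, and Fcgr4 most like Tysnd1, Cdc42ep2 and Cd5 (r = 0.96, 0.958 and 0.946), with 8. Fcgr2b and Fcer1g thus had more close companions than the receptors Fcgr1, Fcgr3 and Fcgr4 at that level of r.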

How the data were processed

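RNA of sorted cells from 9 mice was hybridised to Affymetrix mouse Gene ST arrays, 1 per mouse. The deposited values are log2 expression for 35556 probe sets, as their range of 1.31 to 13.9 shows. How they were normalized is not stated in the labels, and array medians lie between 5.28 and 5.35. The GEO platform annotation gave 21789 probe sets 1 symbol, 1621 several and 12146 none. The probe set with the highest mean stood for each of 19938 genes, and the 10795 genes whose mean reached 5.31, the median over probe sets, were tested. limma 3.58.1 in R 4.3.3 fitted genotype and sex over all 9 arrays (lmFit, eBayes, 5 residual degrees of freedom), with Benjamini-Hochberg adjustment over all tested genes, and differences are on the log2 scale. The script was tested on simulated data. Nothing says whether the mice were processed together, so p-values measure the spread between these samples. The number of arrays limits the precision, and an exact permutation test of 3 against 3 cannot go below p = 0.1.

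The members and the gene lists were chosen with earlier results of these data known. Named are the 5 genes, each list's called genes (up to 4, or the 2 with the smallest p where none was called), the 3 genes most like each member, and markers. Syk, Tyrobp, Rsad2 and the defining cell markers were added outside that rule after values were seen. Gene positions and sequences are from RefSeq on GRCm38.p6, matched for all 5 genes. Whether probes cross-hybridise between the similar genes Fcgr2b and Fcgr3 was not analysed here. Alternatives were the sex term, the samples fitted, the filter, the probe set rule, limma's trend and robust options, quantile normalization, a replicate block, the neutrophil score and each mouse left out.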

Additional observations from a re-analysis of the deposited data

How the results depend on the processing

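For the 5 genes, 0 calls were made under any of the 18 alternatives in any genotype comparison. Fcgr2b stayed between -0.29 and -0.21 in CV minus KO (limma adjusted p from 0.0972 to 0.73) and between 0.20 and 0.28 in R47H minus CV (0.131 to 0.809). The number of genes called was less stable. In CV minus KO it was 131, and 77 without the sex term, 54 with the compared groups alone, 78 with every probe set and 22 with the neutrophil score, and 59 to 172 with single mice left out. In R47H minus KO it was 9, and 3, 1, 3 and 15 under the same settings, 15 with trend and robust, and 0 to 7 with single mice left out (0 without R47H mouse 3 in limma, with 534 at an unadjusted p under 0.05). In R47H minus CV it was 86, and 48 without the filter, 25 with every probe set, 9 with the neutrophil score, and 9 to 132 with single mice left out.

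Signs turned for R47H minus CV of Fcgr4, at -0.38 with the neutrophil score, and for female minus male of Fcgr1, at 0.0075 with it. With single mice left out, CV minus KO ran from -0.0554 to 0.0331 for Fcgr1, -0.158 to 0.059 for Fcgr3 and -0.0419 to 0.506 for Fcgr4. R47H minus KO ran from -0.127 to 0.0605 for Fcgr1, -0.0277 to 0.0073 for Fcgr2b and -0.0627 to 0.154 for Fcgr3. R47H minus CV ran from -0.104 to 0.0835 for Fcgr1 and -0.143 to 0.368 for Fcgr4, and female minus male from -0.0668 to 0.0517 for Fcgr1. The causes were not tested.

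Mice share replicate numbers across groups, but same-numbered mice did not all deviate together, with correlations from -0.04 to 0.362 over 9 pairs. Pairs with different numbers ran from -0.392 to 0.214. Pairs of mouse 1, the female of every group, had the highest values, from 0.319 to 0.362. Sex and mouse number 1 cannot be told apart in this design. With the replicate number as a block in place of the sex term, 136, 11 and 83 genes were called in CV minus KO, R47H minus KO and R47H minus CV, and Fcgr2b had limma adjusted p = 0.151 in CV minus KO and 0.198 in R47H minus CV.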
